A study of Mus musculus with 8 samples.

Results

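The superoxide dismutases (Sod1, Sod2 and Sod3), catalase (Cat) and the peroxiredoxins (Prdx1 to Prdx6) were taken by gene symbol from the whole table, with no threshold on any value. They are 10 of 55919 genes listed, and all 10 passed the filter on low values that left 15650 genes for testing (at least 1 FPKM in at least 2 libraries). FPKM, sequenced fragments scaled by gene length and library size, is the unit of every level given here. Whole kidney RNA was sequenced in 8 libraries that each pooled 3 female mice of the mixed C57BL/6 x 129S4/SvJae strain. Both libraries of WT-NI came from Tet1+/+ littermates with non-injured kidneys, and both of KO-NI from Tet1-/- mice with non-injured kidneys. The injured groups, labelled WT-I/R 3D and, for the knockout, KO-I/R 3D, came from mice of the same genotypes whose left renal pedicle had been clamped for 45 min and then released for 3 days, the acute stage of ischemia and reperfusion (I/R), and these groups are called injured WT and injured KO here, with 2 libraries each. The knockout is a germline allele carried by every cell of the animal, so the kidney's own loss of Tet1 and its loss elsewhere cannot be told apart. The sources used here give neither the age of the sequenced mice nor whether NI and injured kidneys were taken from separate animals. Each replicate is a pool, so a p-value here weighs a difference against pools and not against single animals.

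Library totals ran from 13961281 to 18480858 reads, and a single one of the 10 genes held between 232 reads (Prdx4) and 19131 reads (Prdx5) in a library. Tet1 was listed at 0.323 to 0.378 FPKM in WT-NI, 0.243 to 0.313 FPKM in injured WT and 0.158 to 0.189 FPKM in injured KO. In the libraries labelled KO-NI it stood at 0.382 and 0.551 FPKM, not below WT-NI, and since these values cover the whole gene and not the deleted stretch alone, they do not check the genotype. The KO-NI libraries stood further apart than those of the other groups, with 1804 tested genes (11.5%) over 2-fold apart between them against 723 to 838 genes in the other 3 groups. The first of them also gave 10.9% of its reads to mitochondrial genes and the second 7.49%. The 10 proximal tubule markers, which label the main cell of the kidney cortex, summed to 953 FPKM or more in every library.

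As background, superoxide dismutases turn superoxide into hydrogen peroxide and oxygen. Catalase and the peroxiredoxins then remove the hydrogen peroxide, the first in peroxisomes and the others in nearly every compartment of the cell with electrons drawn mostly from thioredoxin. The proximal tubule is rich in mitochondria and peroxisomes, and the return of oxygen after ischemia is a textbook source of superoxide in this tissue.

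In WT-NI kidneys the order of levels per deposited gene length was Prdx5, Cat, Prdx1, Sod3, Prdx3, Sod1, Prdx2, Prdx6, Sod2 and Prdx4, from a mean of 505 FPKM down to 8.32 FPKM, and the libraries of no neighbouring pair in that order overlapped. The length enters this order. For Sod1 the deposited length is 3970 bases, that of a transcript with a retained intron, while its longest coding transcript is 641 bases, a ratio of 6.19. Per longest coding transcript the WT-NI mean of Sod1 was 666, which put it second, between Prdx5 at 855 and Cat at 426. The ratio of both lengths was at most 2.13 for the other genes and 1 for Sod3, Cat and Prdx3. The length cancels in the fold change of a gene between groups. In injured KO the order of the levels per deposited length was Prdx5, Prdx1, Cat, Prdx3, Sod3, Prdx2, Sod1, Prdx6, Prdx4 and Sod2, where only the libraries of Sod3 and Prdx2 overlapped as neighbours. Sod2, ninth in WT-NI, was thus last there, below Prdx4.

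**Figure D1:**
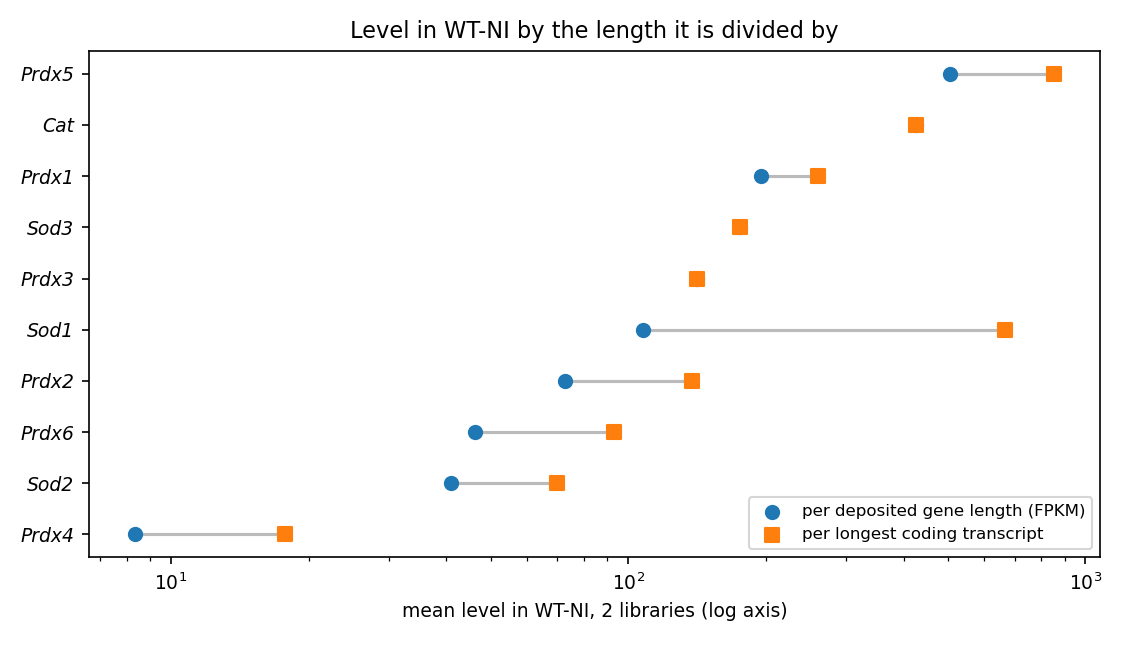
Mean level in the 2 WT-NI libraries for each of the 10 genes (log axis), divided by the deposited gene length (circles, FPKM) or by the longest coding transcript (squares). Sod1 moves from 108 FPKM to 666 and the genes with a ratio of 1 do not move.

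Sod1 encodes the copper and zinc superoxide dismutase of the cytosol. Its level was 104 and 111 FPKM in WT-NI, 59.2 and 117 in KO-NI, 106 and 92.3 in injured WT and 62.1 and 68.1 in injured KO. The injured KO libraries were both below the injured WT ones. The first KO-NI library lay lower than every other library of the 8 and the second higher than every other, so KO-NI overlapped both of the groups it is compared with. Sod1 stood at 65.9% in injured KO of its level in injured WT, a log2 fold change of -0.60 (standard error 0.29, 95% interval -1.29 to 0.09, limma adjusted p = 0.353). Against WT-NI it was -0.12 in injured WT (standard error 0.29, limma adjusted p = 0.802). Against KO-NI it was -0.35 in injured KO (standard error 0.29, limma adjusted p = 0.366).

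Sod2 is the manganese form in the mitochondrial matrix. It measured 40.2 and 41.5 FPKM in WT-NI, 45.2 and 40.1 in KO-NI, 25.9 and 22.0 in injured WT and 16.8 and 13.7 in injured KO. The 4 non-injured libraries overlapped, both injured WT libraries lay below them, and both injured KO libraries lay lowest. Sod2 fell to 58.5% after injury in WT (log2 fold change -0.77, standard error 0.15, limma adjusted p = 0.0165). In KO it fell to 35.8% (log2 fold change -1.48, standard error 0.15, limma adjusted p = 0.000727). Between the injured groups it did not pass, at -0.65 (standard error 0.15, 95% interval -1.005 to -0.296, limma adjusted p = 0.118).

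Sod3 is the secreted, extracellular form. Its level was 174 and 177 FPKM in WT-NI, 111 and 169 in KO-NI, 124 and 130 in injured WT and 81.9 and 78.6 in injured KO. As for Sod1, the first KO-NI library was far below the second, and both injured KO libraries were the lowest of all 8. Sod3 fell after injury in KO, to 58.7% (log2 fold change -0.77, standard error 0.20, limma adjusted p = 0.0201). In WT it was -0.47 and did not pass (standard error 0.20, limma adjusted p = 0.146), though neither injured WT library reached a WT-NI library. Between the injured groups it was -0.66 (standard error 0.20, 95% interval -1.13 to -0.20, limma adjusted p = 0.175).

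Summed over the 3 dismutases, the level per deposited length was 318 and 330 FPKM in WT-NI, 215 and 326 in KO-NI, 256 and 244 in injured WT and 161 and 160 in injured KO. Sod3 held 48.6% to 54.7% of this sum in every library. The share of Sod2 was 21% in the first KO-NI library, 12.3% to 12.6% in the remaining NI libraries and between 8.5% and 10.5% in the injured ones. These shares depend on the length used. Per longest coding transcript the WT-NI means were 666 for Sod1, 176 for Sod3 and 69.8 for Sod2, so Sod1 would then be the largest part.

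Catalase, the hydrogen peroxide enzyme of the peroxisome, was 435 and 418 FPKM in WT-NI, 417 and 400 in KO-NI, 211 and 194 in injured WT and 152 and 118 in injured KO. Injured and non-injured libraries did not overlap in either genotype, and both injured KO libraries lay below both injured WT libraries. Cat fell to 47.5% in WT (log2 fold change -1.07, standard error 0.16, limma adjusted p = 0.00777). In KO it fell to 32.7% (log2 fold change -1.61, standard error 0.16, limma adjusted p = 0.000659), the deepest fall of the 10 genes. Between the injured groups it was -0.60 (standard error 0.16, 95% interval -0.97 to -0.23, limma adjusted p = 0.142).

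**Figure D2:**
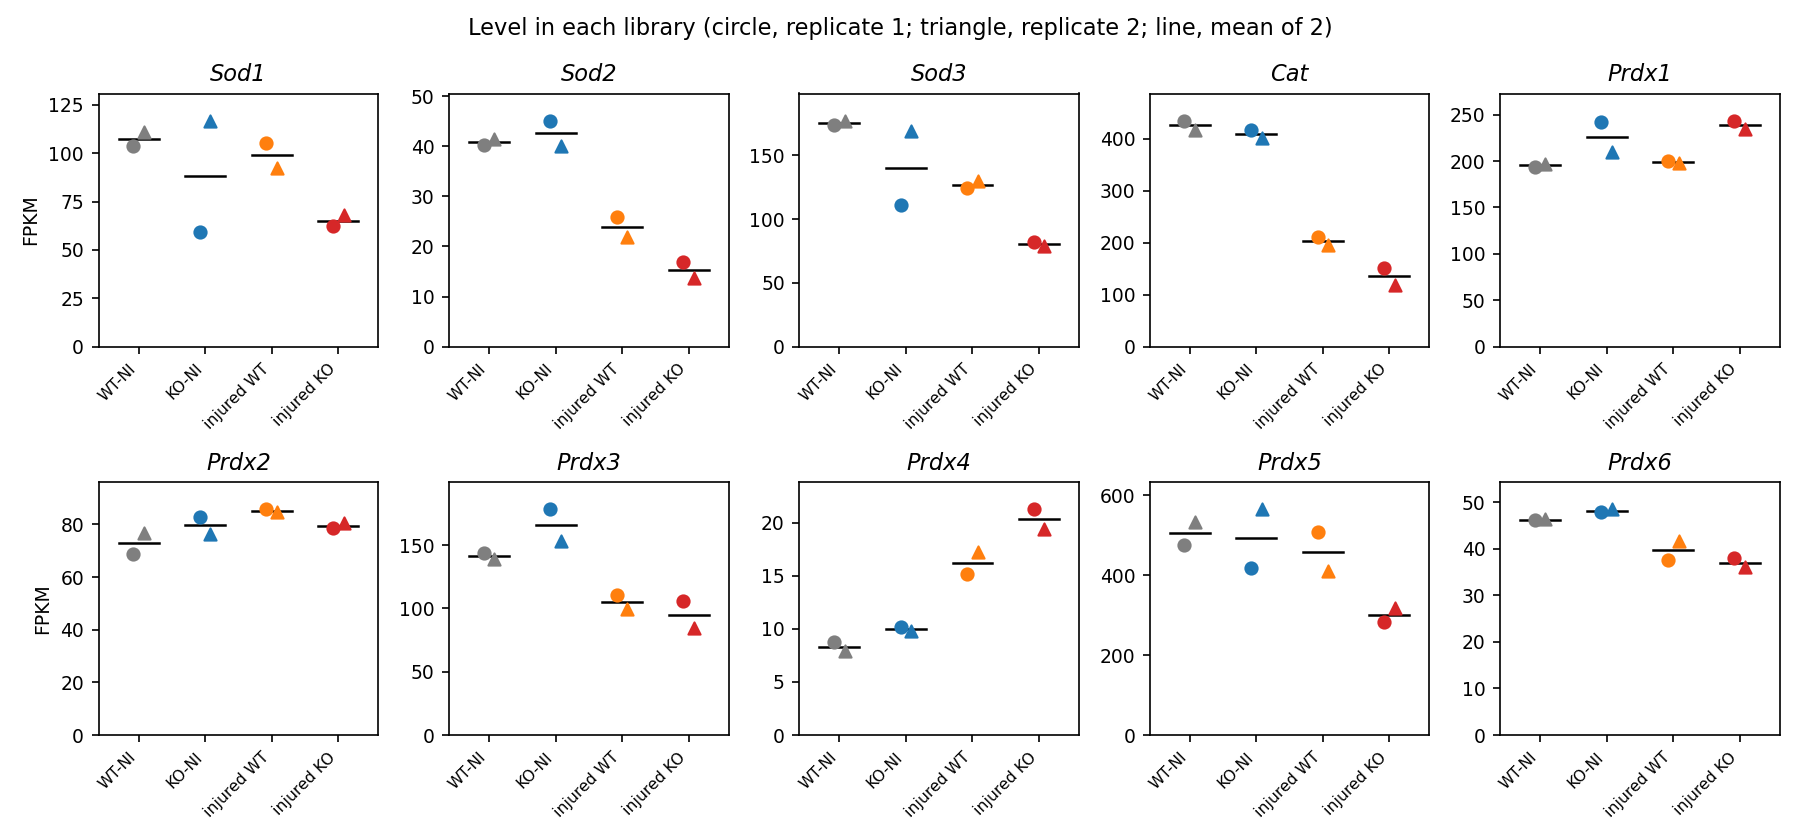
FPKM of each of the 10 genes in the 8 libraries, by group, on axes that start at 0; circles are replicate 1, triangles replicate 2 and lines the mean of both. Sod2 and Cat step down from NI to injured WT to injured KO, Prdx4 steps up, and the KO-NI libraries of Sod1 stand at 59.2 and 117 FPKM.

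Promoter sequence is shown for the 2 genes that fell in both genotypes (Sod2 and Cat), for the gene that rose in both (Prdx4) and for Sod1, whose level differed by the largest fold between the 2 KO-NI libraries and whose window held the most CpG of the 8 matched genes. Each window is 300 bases of RefSeq on GRCm38.p6, 250 before the start site and 50 after it, read in the direction of the gene. CpG dinucleotides, the sites that Tet enzymes act on once they are methylated, are in capitals. Methylation was not measured in these libraries.
Sod1, chr16:90220512-90220811, plus strand: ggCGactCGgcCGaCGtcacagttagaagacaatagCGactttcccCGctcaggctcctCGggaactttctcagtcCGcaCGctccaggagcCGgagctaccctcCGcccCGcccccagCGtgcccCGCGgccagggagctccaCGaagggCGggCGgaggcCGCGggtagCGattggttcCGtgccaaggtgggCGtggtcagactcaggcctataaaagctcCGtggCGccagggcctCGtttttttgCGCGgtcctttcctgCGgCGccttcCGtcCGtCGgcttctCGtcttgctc
Sod2, chr17:13007589-13007888, plus strand: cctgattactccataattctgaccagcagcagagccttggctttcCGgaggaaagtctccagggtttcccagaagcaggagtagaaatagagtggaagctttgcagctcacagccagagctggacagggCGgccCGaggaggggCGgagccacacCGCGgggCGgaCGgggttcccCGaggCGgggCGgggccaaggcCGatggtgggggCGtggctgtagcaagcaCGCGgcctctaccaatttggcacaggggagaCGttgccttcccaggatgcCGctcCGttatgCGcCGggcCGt
Cat, chr2:103485104-103485403, minus strand: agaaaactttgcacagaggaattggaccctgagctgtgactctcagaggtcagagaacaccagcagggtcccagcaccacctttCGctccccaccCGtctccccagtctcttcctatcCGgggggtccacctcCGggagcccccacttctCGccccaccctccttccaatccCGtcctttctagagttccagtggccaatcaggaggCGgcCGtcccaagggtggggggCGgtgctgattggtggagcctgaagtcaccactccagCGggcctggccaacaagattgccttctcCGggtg
Prdx4, chrX:155338411-155338710, minus strand: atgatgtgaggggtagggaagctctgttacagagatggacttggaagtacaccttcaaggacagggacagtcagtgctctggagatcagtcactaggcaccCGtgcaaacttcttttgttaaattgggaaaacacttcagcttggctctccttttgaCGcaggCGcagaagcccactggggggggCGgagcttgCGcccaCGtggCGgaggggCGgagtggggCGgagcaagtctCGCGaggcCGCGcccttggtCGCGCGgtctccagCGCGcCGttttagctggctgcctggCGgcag

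The Sod1 window held 34 CpG, more than 92.3% of 32851 such windows, whose median was 7 (quartiles 3 and 20). Sod2 held 21, Prdx4 20 and Cat 11, and the remaining matched windows held 19 (Prdx1), 27 (Prdx2), 15 (Prdx3) and 22 (Prdx5), with 8 of the 10 genes matched. All 8 were above the median of all windows. A relation between the CpG count of a window and the change of its gene was not tested. The letters GGGCGG, searched on both strands, were found in each of the 8 windows and in 35.7% of all windows, with 4 matches each in Sod1 and Sod2, 3 in Prdx4 and 1 in Cat. The antioxidant response element pattern TGACNNNGC was found in Sod1 and Prdx1 and in 12.4% of all windows, and TATAAA in Sod1, Prdx1 and Prdx3 and in 13.6%. CCAAT was found in Sod1, Sod2, Cat and Prdx4 and in 37.4% of all windows. Matches of one pattern may overlap, as those of GGGCGG in Sod1 do, and all are descriptions of the letters in the windows.

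Of the peroxiredoxins, Prdx1 and Prdx2 are the main forms of the cytosol. Prdx1 was 194 and 197 FPKM in WT-NI, 242 and 210 in KO-NI, 201 and 198 in injured WT and 244 and 235 in injured KO. Both injured KO libraries lay above both injured WT libraries, a log2 fold change of 0.26 that did not pass (standard error 0.12, 95% interval -0.03 to 0.56, limma adjusted p = 0.344). After injury Prdx1 was 0.03 in WT and 0.09 in KO (limma adjusted p = 0.895 and 0.605), and the 95% interval in KO ran from -0.21 to 0.38.

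Prdx2, also abundant in red blood cells, ranged from 68.9 to 85.8 FPKM over the 8 libraries. Its log2 fold change was 0.23 after injury in WT, -0.0010 in KO and -0.10 between the injured groups (limma adjusted p = 0.211, 0.995 and 0.704). The 6 red blood cell markers summed to 278 to 420 FPKM in the NI libraries and 129 to 179 FPKM in the injured ones, and no marker was at 0 in all libraries. Their part in the values of Prdx2 was not tested. Prdx2 overlaps Junb, an immediate early gene on the opposite strand that stood at 4.39 to 16.1 FPKM in NI and 25.8 to 59.1 FPKM in the injured groups. The sources used here do not give whether the counting used strand, so reads of both genes in the overlap cannot be told apart. Sod1 overlaps Scaf4 (7.78 to 11.0 FPKM) and Prdx5 overlaps Trmt112 (15.8 to 27.1 FPKM) in the same way.

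Prdx3 is the peroxiredoxin of the mitochondrial matrix, where Sod2 also works. It was 143 and 139 FPKM in WT-NI, 178 and 153 in KO-NI, 110 and 99.5 in injured WT and 106 and 84.6 in injured KO. In each genotype the injured libraries lay below the NI ones without overlap, and the injured groups overlapped each other. The fall passed in KO, to 57.2% (log2 fold change -0.81, standard error 0.15, limma adjusted p = 0.00652). In WT the log2 fold change was -0.43 (standard error 0.15, limma adjusted p = 0.0975).

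Prdx4 resides in the endoplasmic reticulum, where it takes part in oxidative protein folding. It was the lowest of the 10 genes in WT-NI, at 8.79 and 7.86 FPKM, with 10.1 and 9.79 in KO-NI, 15.2 and 17.3 in injured WT and 21.3 and 19.4 in injured KO. It was the only one of the 10 genes called higher after injury, and its 4 groups did not overlap at any point. Prdx4 rose 1.94-fold in WT (log2 fold change 0.95, standard error 0.13, limma adjusted p = 0.00598). In KO it rose 2.03-fold (log2 fold change 1.02, standard error 0.13, limma adjusted p = 0.00133). Between the injured groups it was 0.32 (standard error 0.13, 95% interval 0.02 to 0.62, limma adjusted p = 0.266).

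Prdx5, found in mitochondria, peroxisomes and the cytosol, had the highest FPKM of the 10 genes in every group. It was 476 and 534 FPKM in WT-NI, 418 and 565 in KO-NI, 508 and 409 in injured WT and 283 and 319 in injured KO. WT-NI, KO-NI and injured WT overlapped one another and both injured KO libraries lay below all of them. Prdx5 fell in KO to 61.8% (log2 fold change -0.69, standard error 0.20, limma adjusted p = 0.0300). In WT it was -0.14 (limma adjusted p = 0.653), and between the injured groups -0.60 (standard error 0.20, 95% interval -1.07 to -0.13, limma adjusted p = 0.208).

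Prdx6 has a single active cysteine and draws on glutathione. It was 46.1 to 48.5 FPKM in the 4 NI libraries and 36.2 to 41.7 FPKM in the 4 injured libraries, without overlap in either genotype. In KO its log2 fold change was -0.38 (standard error 0.11, limma adjusted p = 0.0300), under the fold threshold of 0.5, so it was not called. In WT it was -0.22 (limma adjusted p = 0.201). Of the summed peroxiredoxin level per deposited length, Prdx5 held 50.8% and 53.3% in WT-NI and 36.8% and 41.1% in injured KO. Prdx1 held 20.7% and 19.7% in WT-NI and 31.6% and 30.4% in injured KO. Prdx1 thus came closer to Prdx5 in the injured KO kidney than in any other group. Pseudogenes of Prdx1, Prdx2 and Prdx6 held at most 3 reads in a library. The sources used here do not give how reads matching more than 1 place were handled.

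To see how the genes responded to injury as a group, the calls in each genotype were set beside those of all genes tested. A call needs a Benjamini-Hochberg adjusted p under 0.05 in limma and an absolute log2 fold change over 0.5. In WT, 2 of the 10 genes fell (Sod2 and Cat) and 1 rose (Prdx4), where 8.45% of all genes fell and 8.9% rose. In KO, 5 fell (Sod2, Sod3, Cat, Prdx3 and Prdx5) and 1 rose (Prdx4), where 19.4% of all genes fell and 17.9% rose. The median log2 fold change of the 10 genes was -0.18 in WT and -0.54 in KO, and the median of all genes was -0.01 in both. Both libraries of one group lay below both of the other for 5 of the 10 genes in WT (37.6% of all genes) and for 6 in KO (34.9%). They lay above for 3 in WT (34.5% of all genes) and for 1 in KO (32.5%).

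The calls in WT were lost in part when 1 of the 4 libraries was left out. Of the 3 genes, only Prdx4 was called without the first WT-NI library, only Cat and Prdx4 without the first injured WT library, and none without the second of either group. The share of all tested genes called in either direction then went down to between 1.85% and 4.59%. The log2 fold changes themselves ranged from -0.89 to -0.66 for Sod2, from -1.13 to -1.01 for Cat and from 0.86 to 1.05 for Prdx4. In KO, Sod2, Cat, Prdx3 and Prdx4 were called whichever library was left out. Without the first KO-NI library Sod1 was called as well, at -0.85 (limma adjusted p = 0.00470), among 19.1% of all genes called lower. Without the second its log2 fold change turned to 0.14 (limma adjusted p = 0.412), and Sod3 at -0.46 and Prdx5 at -0.48 were no longer called. Sod3 and Prdx5 also lost their calls without either of the injured KO libraries, and Prdx5 without either of the WT-NI libraries. When limma was run on the 4 KO libraries alone, Sod2, Cat and Prdx4 were the 3 genes called. In that fit 24.6% of all genes tested were called in either direction.

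The scaling of the libraries also bears on these directions. Values rescaled to TPM, where the per-length values of each library have the same sum, moved the median of all genes by 0.18 in WT and 0.40 in KO after injury. On that scale the log2 fold changes of Sod2 and Cat were still -1.08 and -1.21 in KO and that of Prdx4 was 1.43, all 3 called. Of all 15650 genes, 5076 were called higher and 1580 lower in KO on that scale. Sod3 (-0.37), Prdx3 (-0.40) and Prdx5 (-0.29) were not called on that scale, Sod1 turned to 0.05 and Prdx6 to 0.02. Relative to all genes the median of the 10 genes stayed lower, by 0.52 in KO and by 0.17 in WT.

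**Figure D3:**
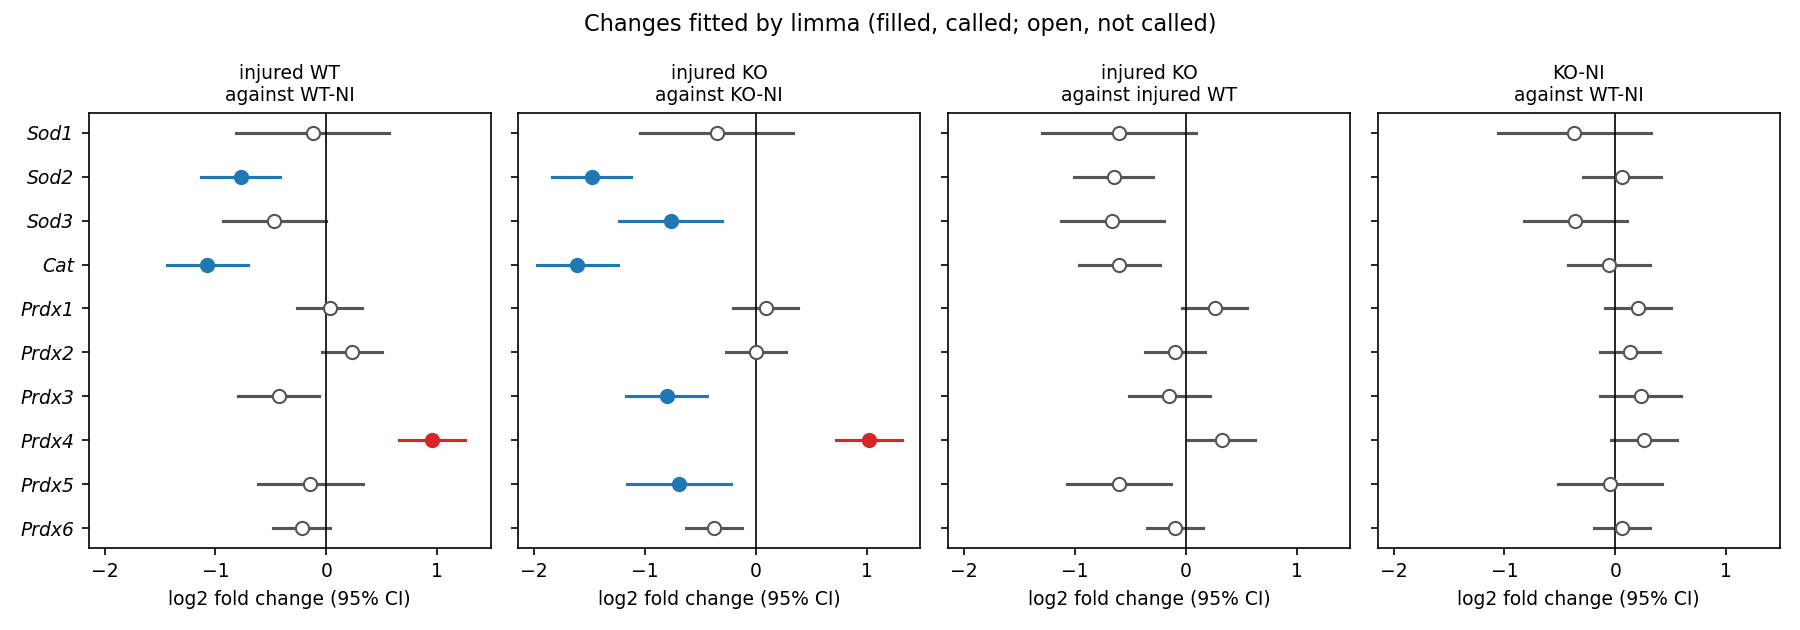
Log2 fold change of each of the 10 genes in 4 comparisons, with 95% intervals from limma; filled points were called and open points were not. Sod2 and Cat (lower) and Prdx4 (higher) are filled in both injury comparisons, Sod3, Prdx3 and Prdx5 in KO only, and no point is filled between genotypes; on the TPM scale Sod1, Sod2, Prdx2, Prdx5 and Prdx6 change sign in at least 1 comparison in which they were not called.

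The question of whether the injured kidney differed with genotype was addressed by injured KO against injured WT, which shares its libraries with both injury comparisons. The log2 fold changes of Sod1, Sod2, Sod3, Cat and Prdx5 lay between -0.66 and -0.60, that is, at 63.3% to 66.1% of the injured WT level. None of the 10 genes was called by limma, nor was any of the 15650 genes (0% in either direction), with 5 of the 10 and 878 higher and 1776 lower of all genes at an unadjusted p under 0.05. Those 5 were Sod2, Sod3, Cat, Prdx5 and Prdx4. By limma voom on the recovered reads, also none of the 10 was called, where 1.67% of all genes were lower and 0.449% higher. The median of the 10 genes was -0.37 and that of all genes -0.00. Both injured KO libraries lay below both injured WT libraries for 6 of the 10 genes (29.5% of all genes) and above for Prdx1 and Prdx4 (28% of all genes).

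The calls differed between settings, and why was not tested. Without either of the KO-NI libraries, which are in neither group compared, Sod1 (limma adjusted p = 0.0422 and 0.0406) and Sod3 (limma adjusted p = 0.0298 and 0.0291) were called, among 3.53% and 3.55% of all genes called lower. With limma voom fitted to the 4 injured libraries alone, Sod1, Sod2, Sod3, Cat and Prdx5 were all called lower (adjusted p from 0.0186 for Sod3 to 0.0493 for Cat), among 4.15% of all genes. In limma on the same 4 libraries alone none of the 10 was called (adjusted p from 0.101 for Sod3 to 0.138 for Prdx5 among these 5 genes), and limma voom on all 8 libraries called none. With a weight for each library in limma, Sod2 and Sod3 were called (adjusted p = 0.0425 and 0.0336), among 3.47% lower. The weights came out equal for both libraries of a group, at 0.314 in KO-NI and 1.05 to 1.98 in the other groups, so they set groups apart and not libraries within a group. Library weights and limma voom on the 4 libraries were added with the data already seen. The log2 fold changes were within 0.01 of each other in all of these settings.

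Before injury, KO-NI against WT-NI, none of the 10 genes was called and none reached an unadjusted p under 0.05, with 0% of all genes called by limma and 351 higher and 525 lower at an unadjusted p under 0.05. By limma voom none of the 10 was called either, where 0% of all genes were higher and 0.011% lower. Log2 fold changes ran from -0.37 (Sod1, 95% interval -1.06 to 0.32) to 0.26 (Prdx4, 95% interval -0.04 to 0.56). Both libraries lay higher in KO-NI for Prdx1, Prdx3, Prdx4 and Prdx6 (17.7% of all genes) and lower for Sod3 and Cat (17.2%). Without the second KO-NI library Sod1 (-0.86) and Sod3 (-0.67) were called (limma adjusted p = 0.0178 and 0.0190), among 9.31% of all genes called lower, with 1 library then standing for the group and assumed to vary like the others. Without the first, Sod1 was 0.12 and Sod3 -0.06.

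The difference of the injury responses between KO and WT was also fitted. It was largest in size for Sod2, at -0.71 (standard error 0.21, 95% interval -1.21 to -0.21, limma adjusted p = 0.400), then Prdx5 at -0.55 (standard error 0.28, limma adjusted p = 0.585) and Cat at -0.54 (standard error 0.22, limma adjusted p = 0.485). None of the 10 and 0% of all genes were called, with 2 of the 10 (Sod2 and Cat) and 563 higher and 1004 lower of all genes at an unadjusted p under 0.05. By limma voom none of the 10 and 0% of all genes were called. So the calls of Sod3, Prdx3 and Prdx5 in KO alone were not shown to differ from WT. For Prdx4 the difference was 0.06 (95% interval -0.36 to 0.49).

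The spread of KO-NI moved with base composition. Coding genes were put into 5 bins of equal size by their GC share. Between the first and second KO-NI library the median log2 difference went from 0.46 in the bin with the least GC to -0.46 in the bin with the most, against 0.06 to -0.08 for WT-NI. Among the 10 genes Sod1 (53.2% GC, log2 difference -0.98), Sod3 (52.7% GC, -0.61) and Prdx5 (58.3% GC, -0.43) differed most between these libraries. Prdx3, Prdx1 and Sod2, with 45.5%, 42.3% and 42.2% GC, differed by 0.22, 0.21 and 0.17 the other way. Sod1 and Sod3 lay below the median of their own bin, -0.18. The comparison of injured KO with injured WT had a trend of the same direction, from 0.21 in the lowest bin to -0.17 in the highest.

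With the trends of GC and transcript length over 12580 coding genes removed, which was also tried only once the data had been seen, only Sod2 was called between the injured groups, at -0.85 (limma adjusted p = 0.0375), among 2.2% of all genes lower. Cat was then -0.60, Sod3 -0.57, Sod1 -0.42 and Prdx5 -0.40 (limma adjusted p = 0.0606, 0.0909, 0.164 and 0.173). After injury in WT the same setting called 5 of the 10 genes lower, with Sod1 (-0.59), Prdx3 (-0.72) and Prdx5 (-0.53) added to Sod2 and Cat, among 15.8% of all genes. In KO it called 6 lower, with Sod1 at -0.88, among 25.6% of all genes. Prdx4 was called higher in both, at 0.59 and 0.61. The part of GC and length in the values of Sod1 was not tested beyond this setting.

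**Figure D4:**
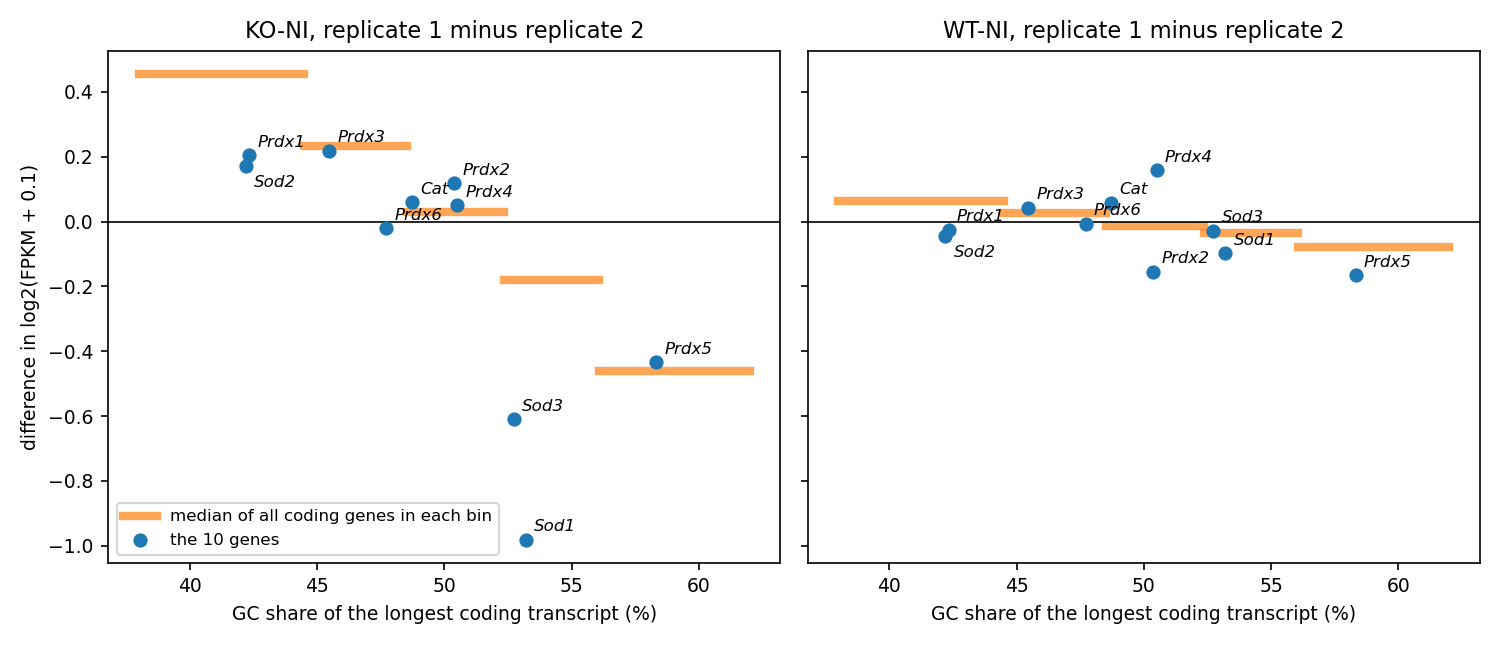
Difference between replicate 1 and replicate 2 in log2(FPKM + 0.1) against the GC share of the longest coding transcript, for KO-NI (left) and WT-NI (right); points are the 10 genes and bars the medians of all coding genes in 5 bins by GC (the outer bins are drawn in part). In KO-NI the bars go from 0.46 to -0.46 with Sod1 at -0.98, and in WT-NI from 0.06 to -0.08 with Sod1 at -0.10.

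Markers of the nephron moved with the same groups. The 10 proximal tubule markers summed to 4459 and 4556 FPKM in WT-NI, 3726 and 4411 in KO-NI, 2463 and 2071 in injured WT and 1411 and 953 in injured KO, which is the order of Cat and Sod2 over the injured groups. Of these markers 9 fell after injury in WT (8.45% of all genes) and 10 in KO (19.4%), with median log2 fold changes of -1.30 and -2.04. Between the injured groups all 10 were below 0 (50.4% of all genes), with a median of -0.93 and none called (0% of all genes). The 5 tubular injury markers summed to 1027 to 1148 FPKM in NI, 4387 and 7045 FPKM in injured WT and 11902 and 13677 FPKM in injured KO. Most of each sum was Spp1, at 1023 to 1146 FPKM in NI, 4177 and 6703 FPKM in injured WT and 11379 and 13000 FPKM in injured KO. Sums of other nephron markers also stepped down from WT-NI to injured WT to injured KO. They averaged 2339, 1895 and 1168 FPKM for the thick ascending limb and 874, 599 and 298 FPKM for the distal and collecting tubule. Podocyte markers averaged 87.5, 60.4 and 49.8 FPKM, with the libraries of the injured groups overlapping. In whole kidney RNA, fewer tubule cells and less RNA of a gene per cell cannot be told apart. No marker of these lists was at 0 in all libraries, and the part of these cells in the values of the 10 genes was not tested.

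Over the 8 libraries, which share groups and depth, Sod2 and Cat followed each other closely (Pearson r = 0.99 on log2 values), and Prdx4 ran opposite to both (r = -0.94 and -0.96). Sod1 ran with Sod3 (r = 0.85) and opposite to Prdx1 (r = -0.91). Among 7660 genes with a mean of at least 5 FPKM, the protein-coding genes most like Sod2 were Coq9, which takes part in making coenzyme Q (r = 0.999), Ugt1a2, Shmt1, Cryzl2 and Stard8, and those most like Cat were Paqr9 (r = 0.999), Eva1a, Car12, Fbxo9 and Snx29. Those most like Sod1 were Sugp1 (r = 0.989), Smim1, Irx1, Klhl17 and Mrpl2, and those most like Sod3 were Tysnd1 (r = 0.996), Emx1, Camk2n1, Mapk8ip1 and Lzts3. Each of those 10 genes was lower in the first KO-NI library than in the second, as Sod1 and Sod3 were. They were picked by correlation over these same libraries, KO-NI included, so this likeness is part of how they were chosen and not a separate result.

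The peroxiredoxins are recycled by the thioredoxin system. Of 16 genes of that system and of repair, 2 fell in WT and 5 in KO and none rose, with medians of -0.22 and -0.43. Over all genes tested, 8.45% fell and 8.9% rose in WT, and 19.4% fell and 17.9% rose in KO. Txnrd1, the cytosolic thioredoxin reductase, fell in WT (-0.63, limma adjusted p = 0.0136). In KO it was -0.47 (limma adjusted p = 0.0158), short of the fold threshold. Txnrd2, the mitochondrial one, fell in both (-0.52 in WT and -0.56 in KO, limma adjusted p = 0.0216 and 0.00717). In KO, Sesn2, a stress-induced sestrin, fell by 0.80 on the log2 scale, glutaredoxin Glrx2 by 0.62 and glutathione reductase Gsr by 0.60, and in WT these were -0.18, -0.29 and -0.44 and did not pass. Txn1, thioredoxin itself, was 0.29 in WT and 0.65 in KO and did not pass (limma adjusted p = 0.439 and 0.0630).

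Of 9 genes that deliver copper and other metals, 2 fell in WT, and 5 fell and 1 rose in KO, with medians of -0.49 and -0.67. Over all genes tested, 8.45% fell in WT, and 19.4% fell and 17.9% rose in KO. Atp7a, a copper export pump (-1.22), and the metal transporter Slc11a2 (-0.55) fell in WT. Atp7a also fell in KO (-1.40, limma adjusted p = 0.0111). In KO, Slc31a1, the main copper importer of the cell surface (-0.99), Slc25a3, which carries phosphate and copper into mitochondria (-0.91), and Slc11a2 (-0.67) fell and Slc31a2 rose (0.89). In WT, Slc31a1 at -0.52, Slc25a3 at -0.49 and Slc31a2 at 0.39 were not called. Ccs, the chaperone that hands copper to Sod1, was 62.9 and 68.6 FPKM in WT-NI, 32.1 and 66.2 in KO-NI, 56.6 and 50.9 in injured WT and 28.8 and 35.6 in injured KO. Its first KO-NI library was apart from the second in the same direction as for Sod1. After injury in KO it did not pass (-0.52, limma adjusted p = 0.221).

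Of 7 glutathione peroxidases, the other family that removes hydrogen peroxide, 6 passed the filter. Of these, 2 rose in WT, and 2 rose and 2 fell in KO, with medians of 0.07 and -0.01. Over all genes tested, 8.9% rose in WT, and 17.9% rose and 19.4% fell in KO. Gpx7 and Gpx8, both of the endoplasmic reticulum like Prdx4, rose after injury in WT (2.41 and 1.29) and in KO (2.20 and 1.45), with limma adjusted p from 0.000410 to 0.00348. Gpx3, the form secreted into plasma by the proximal tubule, fell in KO (-1.20, limma adjusted p = 0.00748) from 14078 and 16457 FPKM to 7094 and 6176 FPKM, and Gpx6 fell in KO (-2.67, limma adjusted p = 0.00138). In WT, Gpx3 went from 16067 and 16511 FPKM to 9713 and 9212 FPKM, without overlap, and did not pass (-0.78, limma adjusted p = 0.0628), and Gpx6 was -0.32. Gpx1, the cytosolic form, was at 1001 to 1197 FPKM in all 8 libraries.

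Of 23 enzymes that make superoxide or hydrogen peroxide, 17 passed the filter. Of these, 5 rose and 6 fell in WT, and 5 rose and 8 fell in KO, with medians of -0.52 and -0.37. Over all genes tested, 8.9% rose and 8.45% fell in WT, and 17.9% rose and 19.4% fell in KO. Subunits of the phagocyte NADPH oxidase rose in both, Ncf1 by log2 fold changes of 2.51 and 3.91, Ncf4 by 2.33 and 3.31 and the GTPase Rac2 by 2.23 and 3.32 (limma adjusted p from 0.000439 to 0.00613). In the NI libraries Ncf1 was at 0.29 to 0.85 FPKM and Ncf4 at 0.31 to 0.64 FPKM. Both thus passed the filter of 1 FPKM only through the injured libraries, and the size of their rises rests on values near the floor. The sum of 10 macrophage markers averaged 101 FPKM in WT-NI, 77.5 in KO-NI, 620 in injured WT and 843 in injured KO, with no marker at 0 in all libraries, and their part in these rises was not tested. No gene of the 4 lists was called between genotypes, injured or not, or for the difference of the injury responses, where limma called 0% of all genes.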

How the data were processed

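RNA of whole kidneys was sequenced after poly-A selection in 8 libraries, each a pool of 3 mice, and the sample labels gave group and replicate number. The authors deposited 1 table of FPKM per gene with gene lengths. Alignment with HISAT2 2.0.5 to GRCm38.p6 (mm10) is named in the submitters' processing notes, and the counting program is not given there or in the paper. The gene positions in the table do not match that assembly, so coordinates are given only for RefSeq promoter windows. Multiplied by length, 100% of the FPKM values came to whole reads within 0.001 reads, and these read counts were recovered. The total behind the deposited FPKM was 0.808 to 1.13 times the reads, so the values had been scaled between libraries. This depth gave 232 to 19131 reads per gene of the set and library.

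Log2(FPKM + 0.1) of the 15650 genes that reached 1 FPKM in 2 or more libraries was fitted in limma 3.58.1 (R 4.3.3) with 4 group means, all 8 libraries and a variance trend. Fold changes are on this scale. P-values were adjusted over all genes by Benjamini-Hochberg. The thresholds of the study were kept, with 0.05 for the adjusted p and 0.5 for the size of the log2 fold change. The procedure was tested on simulated data. Alternatives were another pseudocount, no filter, TPM, other size factors, fewer libraries, a replicate block, each library left out, limma voom on the reads, library weights, and removal of GC and length trends. GC was taken from the longest coding transcript of the reference annotation for 99.8% of coding genes tested. The same-numbered libraries were not treated as pairs in the main fit.

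The 10 genes and the other lists were chosen with earlier results of these data known. All 10 are named. From each other list at most 4 called genes, by adjusted p, and at most 2 uncalled genes, by mean FPKM, were named in a comparison described, and the 5 genes most like Sod1, Sod2, Cat and Sod3. Ccs and Gpx1 are also shown by library. A gene that this rule names among the makers of superoxide and hydrogen peroxide is not reported here.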

Additional observations from a re-analysis of the deposited data

How the results depend on the processing

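The count of the 10 genes called after injury in WT, 3 as reported, ranged from 0 to 3 with 1 library left out and was 6 with GC and length trends removed. After injury in KO the 6 calls became 3 on the TPM scale and 3 in limma on the 4 libraries of the comparison alone (Sod2, Cat and Prdx4 in each), and 4 to 7 with 1 library left out. Between the injured groups the 0 calls became 0 to 2 with 1 library left out, 5 with limma voom on the libraries of the comparison alone (0 with limma on the same libraries and 0 with limma voom on all 8), 2 with library weights and 1 with GC and length trends removed. Between the NI groups the 0 calls became 0 to 2. The difference of the injury responses gave 0 calls in every setting. The share of all genes called in either direction moved as well. After injury in WT it was 28% with GC and length trends removed, against 8.9% higher and 8.45% lower as reported. After injury in KO it was 42.5% on the TPM scale and 24.6% in limma on the 4 libraries alone. As reported, 17.9% were higher and 19.4% lower in KO. Between the injured groups the share was 5.76% in the limma voom setting with 5 calls, 4.04% with library weights and 2.61% with GC and length trends removed. Why the counts differ between these settings was not tested.

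Directions turned only for values that had not been called. On the TPM scale, which moved the median of all genes by 0.18 in WT, 0.40 in KO, 0.13 between the injured groups, -0.08 between the NI groups and 0.22 for the difference of the responses, Sod1 became 0.059 and Prdx5 0.039 after injury in WT, and Sod1 0.049, Prdx2 0.40 and Prdx6 0.025 after injury in KO. On the same scale Prdx2 and Prdx6 became 0.035 and 0.038 between the injured groups, Sod2 and Prdx6 -0.029 and -0.027 between the NI groups, and Prdx6 0.064 for the difference of the responses. The genes called over the whole table after injury in KO went from 2808 higher and 3043 lower to 5076 higher and 1580 lower on that scale. With GC and length trends removed, Prdx1 became -0.15 in WT and -0.12 in KO after injury, and Sod2 -0.17 and Prdx5 0.27 between the NI groups. With 1 library left out, Prdx5 ranged from -0.30 to 0.013 after injury in WT. After injury in KO, Sod1 ranged from -0.85 to 0.14, Prdx1 from -0.015 to 0.19 and Prdx2 from -0.060 to 0.058. Between the injured groups Prdx3 ranged from -0.31 to 0.011. Between the NI groups Sod1 ranged from -0.86 to 0.12, Sod2 from -0.027 to 0.14 and Prdx5 from -0.27 to 0.17. For the difference of the responses Sod1 ranged from -0.72 to 0.26, Sod3 from -0.61 to 0.0046, Prdx1 from -0.044 to 0.16 and Prdx4 from -0.028 to 0.16.

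With the replicate number as a block the counts were 3, 6, 0, 0 and 0, as without it. Deviations of same-numbered libraries correlated at 0.027 to 0.173 between groups, with only KO-NI and injured KO over 0.1. With 2 libraries a group these values cannot tell whether the numbers mark pairs, and the libraries were not treated as pairs. Each group held 2 pools, and the interval of Sod1 between the injured groups, -1.29 to 0.09, covered 0. The depth was at least 232 reads per gene and library.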
